A study of Mus musculus with 32 samples.

Results

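Chromatin inside genes and away from their ends was examined in haematopoietic stem and progenitor cells (HSPCs) sorted from mouse marrow, in which accessible DNA had been marked by ATAC-seq, a transposase assay of open chromatin. Each of 16 peak lists was reduced to its 19100 strongest autosomal peaks by the authors' −log10 p, with ties broken by fold enrichment. Overlapping peaks were merged over all lists. A merged region counted as intragenic when it had a peak in at least 3 lists, overlapped a protein-coding gene model of GRCm38 RefSeq and lay more than 1 kb from every end of such a model. The rule found 7591 intragenic regions, 32.2% of the 23554 merged regions that met this list minimum, which 11373 intragenic merged regions had entered. Of the others, 10002 touched or lay within 1 kb of a gene model end (gene-end regions) and 5961 lay outside gene models (distal regions). The strength of peaks entered the rule, and differences between the study's groups were not used in it. A region could still meet the list minimum through the lists of 1 group or treatment alone. Group differences in such regions are not independent of the rule.

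All cells were lineage-negative, cKit-positive and Sca1-positive and came from wild-type CD45.1+/2+ donor marrow, so none of them carried the leukaemia transgene. AF9-experienced mice were lethally irradiated C57BL/6J (CD45.2) hosts of 200000 CD45.1 marrow cells, homozygous for a doxycycline-inducible human MLL-AF9 fusion and carrying rtTA, together with 800000 of the wild-type donor cells. Naive mice received marrow with rtTA and no MLL-AF9 in place of the transgenic marrow. All mice were given doxycycline for 5 weeks, starting 6 to 8 weeks after transplantation, followed by 4 weeks without it, and then 1 injection of LPS, the bacterial lipopolysaccharide that activates Toll-like receptor 4, or of PBS. HSPCs were sorted 24 hours later. The labels hold 32 samples, namely 16 biological replicates with 2 technical libraries apiece, and each biological replicate had 1 list: 5 of AF9-experienced mice after LPS, 4 of AF9-experienced mice after PBS, 3 of naive mice after LPS and 4 of naive mice after PBS.

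Open regions inside genes are mostly enhancers in introns and alternative promoters. Enhancers gather transcription factors and can act on the gene that hosts them or on a neighbour, so a position inside a gene does not tell which gene a region acts on. In blood stem cells many of the best studied enhancers are intronic, among them one in the first intron of Runx1 and the Csf1r enhancer known as FIRE, and enhancers are known to differ between cell states more than promoters do.

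Of the 7333 intragenic regions on chromosomes that the RefSeq table of transcript starts covers, 1037 (14.1%) held an annotated start, which was a start of the host gene in 924 of them. Whether these annotated starts are used in HSPCs was not tested. The 250 bases before such a start hold the sequence of its possible promoter. They are printed here for 3 regions that ranked higher after LPS, 2 that ranked lower and 2 that were in every list and did not pass the test, from RefSeq on build GRCm38.p6, 5′ to 3′ in the direction of transcription. Capitals mark CG dinucleotides, which are dense in the promoters of broadly used genes. The first belongs to Gm41235, a long non-coding RNA whose start lies inside Acod1 (chr14:103048741-103048990, minus strand). The next are an internal start of S100a3, a calcium-binding protein gene (chr3:90586702-90586951, plus strand), and of Smim14 (chr5:65484062-65484311, minus strand). The pair that ranked lower are starts of Atp2b2, a plasma membrane calcium pump gene (chr6:113934682-113934931, minus strand), and of Ppfia4, a liprin scaffold gene (chr1:134332929-134333178, minus strand). The last pair are the proximal promoter of Runx1, a transcription factor required to form blood stem cells (chr16:92697330-92697579, minus strand), and a start of Stag1, a cohesin subunit gene (chr9:100643198-100643447, plus strand).
Gm41235: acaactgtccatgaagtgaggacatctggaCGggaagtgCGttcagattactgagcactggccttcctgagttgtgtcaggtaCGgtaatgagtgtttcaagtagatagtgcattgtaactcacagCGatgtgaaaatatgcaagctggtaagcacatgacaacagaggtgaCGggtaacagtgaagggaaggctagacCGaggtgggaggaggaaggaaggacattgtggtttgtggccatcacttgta
S100a3: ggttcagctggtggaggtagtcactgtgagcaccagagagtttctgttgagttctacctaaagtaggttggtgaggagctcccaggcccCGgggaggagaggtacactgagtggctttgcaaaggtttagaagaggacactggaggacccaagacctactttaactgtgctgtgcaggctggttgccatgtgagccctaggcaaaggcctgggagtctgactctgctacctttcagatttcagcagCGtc
Smim14: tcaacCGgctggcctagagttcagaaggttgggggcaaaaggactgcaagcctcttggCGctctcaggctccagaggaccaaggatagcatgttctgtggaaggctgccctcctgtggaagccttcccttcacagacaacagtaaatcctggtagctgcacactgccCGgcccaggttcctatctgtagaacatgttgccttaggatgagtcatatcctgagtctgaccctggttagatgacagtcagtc
Atp2b2: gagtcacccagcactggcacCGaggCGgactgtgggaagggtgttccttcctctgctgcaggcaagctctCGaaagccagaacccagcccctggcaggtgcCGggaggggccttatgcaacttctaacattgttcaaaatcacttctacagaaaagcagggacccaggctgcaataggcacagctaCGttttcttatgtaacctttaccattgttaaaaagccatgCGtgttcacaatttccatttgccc
Ppfia4: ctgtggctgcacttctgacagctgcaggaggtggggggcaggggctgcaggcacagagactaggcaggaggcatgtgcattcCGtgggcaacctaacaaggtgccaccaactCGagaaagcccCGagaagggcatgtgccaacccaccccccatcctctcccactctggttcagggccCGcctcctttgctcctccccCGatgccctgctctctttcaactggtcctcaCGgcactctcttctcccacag
Runx1: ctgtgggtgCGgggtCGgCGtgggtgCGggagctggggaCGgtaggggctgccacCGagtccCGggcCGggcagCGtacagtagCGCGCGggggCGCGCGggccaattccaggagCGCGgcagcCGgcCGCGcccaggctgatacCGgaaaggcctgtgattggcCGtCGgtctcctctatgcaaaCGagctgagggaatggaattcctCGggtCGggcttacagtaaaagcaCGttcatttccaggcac
Stag1: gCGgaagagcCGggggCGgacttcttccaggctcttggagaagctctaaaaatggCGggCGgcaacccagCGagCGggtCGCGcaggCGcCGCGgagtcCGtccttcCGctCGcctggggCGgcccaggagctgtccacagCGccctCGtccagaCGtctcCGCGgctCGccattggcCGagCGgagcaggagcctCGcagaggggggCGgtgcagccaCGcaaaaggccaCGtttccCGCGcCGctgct

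The windows of Gm41235, S100a3 and Smim14 held 6, 2 and 3 CG dinucleotides, and those of Atp2b2 and Ppfia4 held 6 each, against 27 at Runx1 and 31 at Stag1. The printed windows were chosen after the values of their regions were seen. For the whole set 1 window was taken per region, the one with the most CG. The median was 6 (quartiles 3 to 7.5) in the 23 regions that ranked higher after LPS in either background, 13 (6 to 16) in the 17 that ranked lower and 18 (11 to 25) in 657 that did not pass the test and were in all 16 lists. The 340 that did not pass and were in fewer lists had a median of 10 (4 to 19), so the count also went with how often a region was seen. The regions that ranked lower thus had a higher median than these, and the windows printed for Atp2b2 and Ppfia4 lie at their lower quartile. Starts in gene-end regions had a median of 18 (n = 9870), and all autosomal starts of the table had a median of 6 (n = 31396). Both of these medians count every start, without the choice of the window with the most CG, so they are not measured like those of the intragenic regions. These counts are a description of few windows, and no test was made of them.

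Short motifs were searched on both strands of these windows, and matches to different motifs may overlap. TGTGGT, the core bound by RUNX factors, was in the Gm41235 window and in 14% of all autosomal start windows. CAGCTG, an E-box, was in the S100a3 and Ppfia4 windows and in 13.0% of all. TGANTCA, the AP-1 site, was in the Smim14 window and in 6.77% of all, and TGACAG, a MEIS site, was in the Smim14 and Ppfia4 windows and in 15.7% of all. TTGCNNAA, a C/EBP site, and GGGNGGGGC, a KLF site, were in the Atp2b2 window and in 9.66% and 15.7% of all. None of the 14 motifs searched was in the Runx1 or the Stag1 window.

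A region was valued in each library by where its strongest peak stood among the 19100 kept, as a percentile rank, where 100 is the strongest and 0 means that no peak was kept. A rank of 0 does not mean closed chromatin, since the full lists hold weaker peaks, and a region can move because others do. The full lists held 60841 to 88816 peaks except in 3 libraries, naive PBS replicate 1 (19448), AF9-experienced PBS replicate 1 (25685) and naive LPS replicate 3 (39464). The authors' median fold enrichment of the kept peaks was 9.16 to 13.6 in the other LPS libraries and 13.9 to 19.4 in the other PBS libraries, against 5.07 to 6.58 in the short lists. LPS and PBS thus differed in this measure, and its part in the LPS differences was not tested beyond the counts with it as a covariate given below. Kept peaks in intragenic regions made up 21.5% to 28.6% of a list, or up to 29.0% in AF9-experienced LPS replicate 5. In the 3 short lists they made up 21.5% (naive PBS replicate 1), 24.1% (AF9-experienced PBS replicate 1) and 24.9% (naive LPS replicate 3). The lists are of bulk cells, in which fewer cells of a type and less open chromatin per cell cannot be told apart. The labels do not say whether biological replicates were separate mice, so p-values measure the spread between these samples.

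Intragenic regions had weaker and less recurrent peaks than gene ends. A region's peak was in all 16 lists for 2209 intragenic regions (29.1%), against 7302 gene-end regions (73.0%) and 1436 distal regions (24.1%), and in only 3 to 5 lists for 20%, 5.15% and 22.4% of these classes. Median width was 837 bp in intragenic, 1164 bp in gene-end and 782 bp in distal regions. The median rank of the intragenic regions with a kept peak averaged 37.8 ± 2.88 (SD, n = 16 libraries), against 70.7 ± 0.599 for gene-end and 34.7 ± 3.15 for distal regions. The difference from gene ends was −32.9 and was negative in 16 of 16 libraries, and the difference from distal regions was 3.14 (1.95 to 3.91) and positive in 16 of 16 (paired permutation test over libraries, two-sided p = 3.1e-05 for both, the smallest possible with 16 libraries). All libraries share 1 set of regions, chosen by the strength that is ranked here. These p-values thus describe only how steady a difference was across the libraries. With peaks ranked by fold enrichment in place of −log10 p, the difference from distal regions was 0.106 (permutation p = 0.8).

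**Figure D1:**
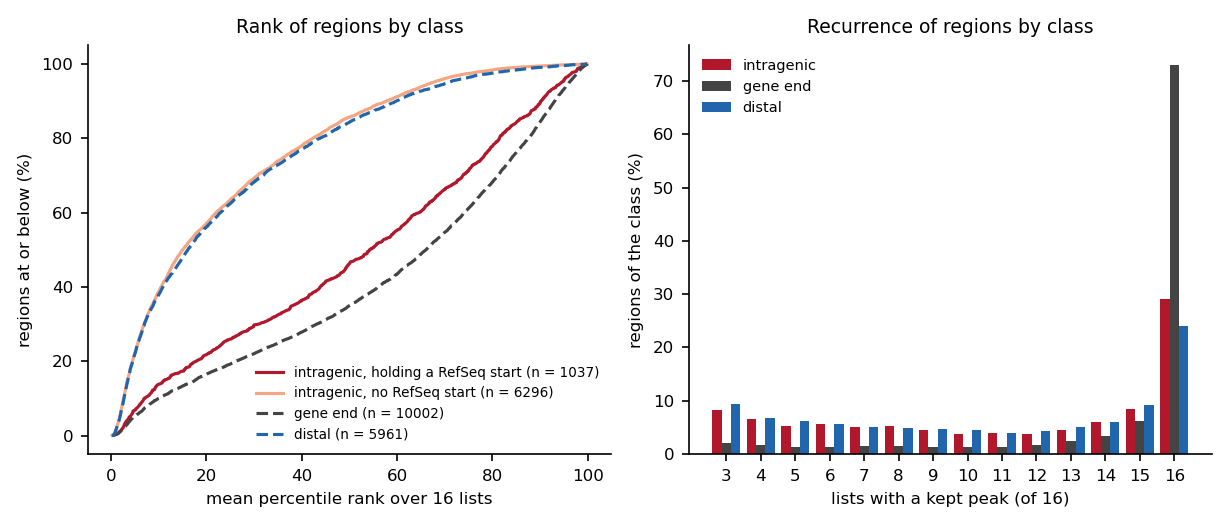
Left, the share of regions (percent) at or below each mean percentile rank over the 16 lists, for intragenic regions that hold a RefSeq start (n = 1037) or none (n = 6296), gene-end regions (n = 10002) and distal regions (n = 5961); right, the share of each class by the number of lists with a kept peak. Intragenic regions without a start run beside the distal curve and those with a start near the gene-end curve, and the bar at 16 lists is 29.1% for intragenic against 73.0% for gene-end regions.

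Regions with an internal start were in all 16 lists in 65.1% of cases and had a median mean rank of 54.3 and a median width of 1140 bp, against 23.3%, 15 and 787 bp without a start. Within libraries the median rank was 62.3 ± 1.06 with and 33.9 ± 3.02 without a start (SD, n = 16), a difference of 28.4 (21.0 to 31.5) that was positive in 16 of 16 libraries (paired permutation test, two-sided p = 3.1e-05, the smallest possible). Here too the p describes only how steady the difference was across libraries that share 1 set of regions. The 8 intragenic regions with the highest mean rank, from 99.0 to 99.8, were in Angptl6, Hint3, Por, Stag1, Stard13, Map4, Iffo2 and Srrm2, and the one in Angptl6 was the exception that held no annotated start. Por encodes the cytochrome P450 reductase and Srrm2 a splicing protein. The Stag1 region stood at 99.0 ± 1.97 after LPS and 99.9 ± 0.0737 after PBS in AF9-experienced mice, and at 99.5 ± 0.386 and 99.8 ± 0.14 in naive mice.

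The regions were spread over 4421 host genes, 21.4% of the 20665 autosomal protein-coding gene models, and 2783 hosts had a single region. Host models had a median length of 52.3 kb, against 17.5 kb over all models, and a long gene has more room that satisfies the rule. The median distance was 14.4 kb to the nearest gene model end (quartiles 5.64 and 36.9 kb) and 27.7 kb to the host's 5′ end. Of the 5999 regions in hosts of known strand, 27.7%, 27.8%, 24.0% and 20.6% lay in 4 equal stretches of the host, in order from its 5′ end. Regions within 500 bp of the 1 kb limit had a median mean rank of 34.2 on the inside (350 regions) and 29.9 on the outside (556 regions).

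Gse1, which encodes a subunit of a histone deacetylase corepressor complex, held the most regions, 20 over 353 kb. It was followed by Pde4d, a cyclic AMP phosphodiesterase gene, with 19 over 1300 kb, Prkag2, a subunit gene of the energy sensor AMPK, with 13, and Maml3, a Notch coactivator gene, with 12. Ctif and Zmiz1 held 11 each, and Arid1b, Elmo1, Frmd4a, Septin9 and Zfhx3 held 10 each. Arid1b is a subunit of the BAF chromatin remodeller and Elmo1 activates Rac through DOCK proteins. Mean ranks within Gse1 ran from 2.9 to 77.3, so regions of 1 gene were not of 1 strength.

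In AF9-experienced mice, 417 of the 7591 regions ranked higher after LPS than after PBS and 187 ranked lower (limma, Benjamini-Hochberg adjusted p under 0.05 over all tested regions). That is 5.49% and 2.46% of the intragenic regions, against 3.44% and 1.74% of all tested regions. Of gene-end regions 0.96% ranked higher and 0.8% lower, and of distal regions 4.98% and 2.42%. The median difference was 33.0 percentile points for the higher regions (5.39 to 67.3; median SE 7.33) and −29.6 for the lower ones (−49.5 to −8.35; median SE 7.34), in 386 and 183 host genes. Regions with a start passed in 1.54% (higher) and 1.45% (lower) of cases, against 6.11% and 2.62% without a start.

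In naive mice, 233 intragenic regions ranked higher after LPS and 133 ranked lower by the same fit. These are 3.07% and 1.75% of the intragenic regions, against 2.0% and 1.22% of all tested regions, 0.64% and 0.4% of gene-end regions and 2.92% and 1.91% of distal regions. The median differences were 37.0 (12.9 to 62.9; median SE 8.24) and −37.0 (−60.0 to −11.3; median SE 8.39) percentile points. Whether the classes differ in these shares was not tested, and the shares went with recurrence. Of the 1844 intragenic regions in 6 to 10 lists 207 ranked higher in AF9-experienced mice, against 68 of the 2209 in all 16 lists.

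Other choices end many of these calls. With peaks ranked by fold enrichment 117 regions ranked higher and 59 lower in AF9-experienced mice, and 1 and 1 in naive mice; with only the groups compared in the fit the counts were 366 and 160, and 40 and 21. Leaving out 1 library at a time gave 231 to 485 higher and 76 to 273 lower in AF9-experienced mice. The higher count moved by over 1.5 times without AF9-experienced PBS replicate 2 (260), 3 (231) or 4 (244), and the lower count without these (110, 91 and 76) or without AF9-experienced LPS replicate 1, 2, 3 or 4 (120, 110, 113 and 113). In naive mice the ranges were 118 to 269 higher and 52 to 265 lower. There the higher count moved as far without naive LPS replicate 1 (145) or 2 (118) or naive PBS replicate 2 (136) or 3 (136), and the lower count without naive LPS replicate 2 (52) or 3 (69) or naive PBS replicate 1 (265), 2 (86) or 3 (66). With the library's median fold enrichment as a covariate the counts were 483 and 236 in AF9-experienced mice, and 305 and 192 in naive mice.

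**Figure D2:**
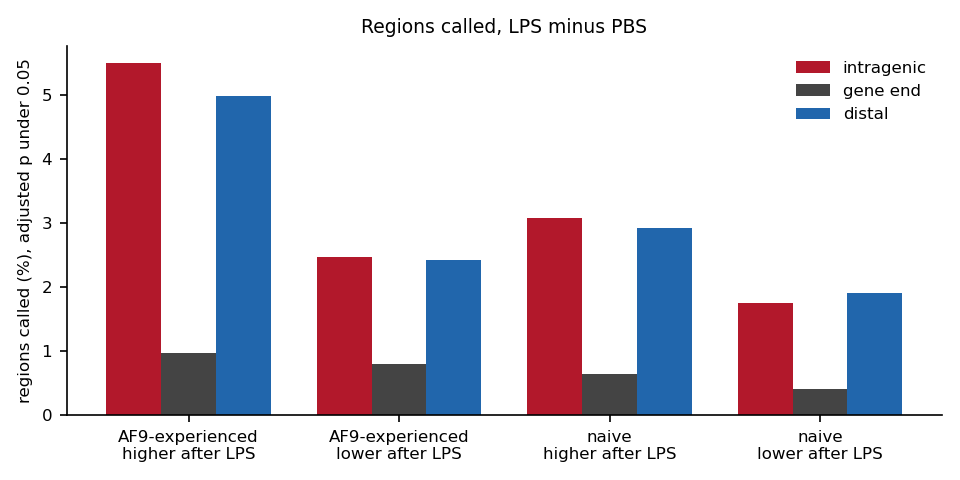
Percent of the regions of each class (intragenic n = 7591, gene end n = 10002, distal n = 5961) that passed the limma test at an adjusted p under 0.05, for LPS minus PBS in AF9-experienced and in naive mice. Bars start at 0, and the intragenic bars (5.49%, 2.46%, 3.07% and 1.75%) stand well above the gene-end bars and near the distal ones.

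Many gains and losses were of strength, with a weaker peak left in the full lists. In AF9-experienced mice 146 of the higher regions were kept in every LPS list (5) and missing from every shortened PBS list (4), and all 146 had a weaker peak in every full PBS list but the shortest. In naive mice 95 of the higher regions were kept in all 3 LPS lists and no PBS list, and 86 had a peak in every full PBS list but the shortest. For the lower regions, 35 in AF9-experienced and 39 in naive mice were kept in all PBS and no LPS lists, and none of them lacked a peak in every full LPS list.

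The LPS differences of both backgrounds, which share no library, ran the same way. Of the regions that passed, 147 ranked higher in both backgrounds, 35.3% of the AF9-experienced and 63.1% of the naive calls, and 57 ranked lower in both, 30.5% and 42.9%. None passed in opposite directions. Of the 604 regions that passed in AF9-experienced mice, 587 had the same sign in naive mice, and of the 366 that passed in naive mice, 359 had the same sign in AF9-experienced mice. Across the 7591 regions Pearson's r of the 2 differences was 0.735 and Spearman's rho 0.67, as a description over regions that share libraries and a fit. In 225 regions (2.96%, against 1.9% of all tested regions) all 8 LPS libraries ranked above all 8 PBS libraries, and in 77 (1.01%, against 0.807%) all ranked below.

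**Figure D3:**
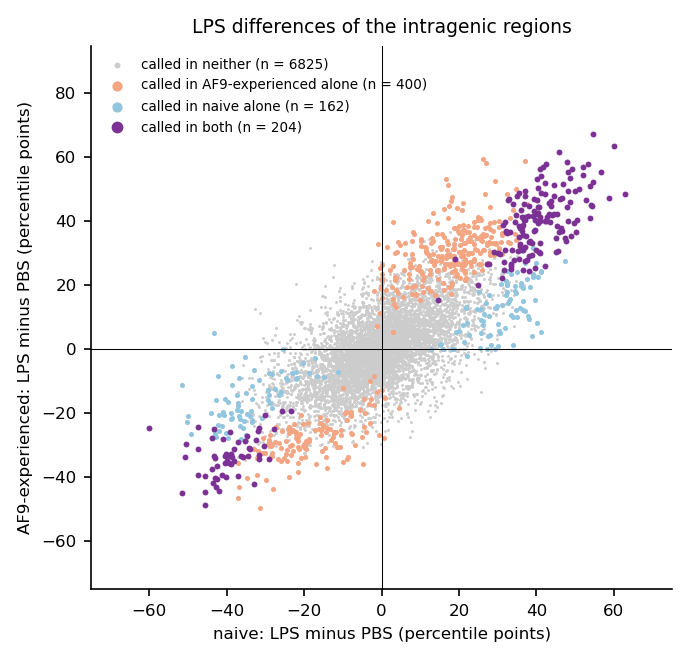
Each point is 1 of the 7591 intragenic regions, placed by its LPS minus PBS difference in naive mice (horizontal, percentile points) and in AF9-experienced mice (vertical, percentile points). The 204 regions that passed in both backgrounds lie in the upper right and lower left corners, 400 passed in AF9-experienced and 162 in naive mice alone, and none passed in opposite directions.

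A region of Xrcc4, whose protein joins broken DNA ends, lay at chr13:89889033-89889469, 40.1 kb from the nearest end. It ranked 55.5, 67.3, 66.9, 62.7 and 65.5 after LPS in AF9-experienced mice, against 0 in all 4 PBS lists, and 69.2, 56.6 and 68.7 after LPS in naive mice, against 19.7, 0, 0 and 0 after PBS. Every LPS library stood above every PBS library. The difference was 63.6 (SE 6.7; limma adjusted p = 3.23e-05) in AF9-experienced mice and 59.9 (SE 7.63; adjusted p = 0.000475) in naive mice. The PBS list with a kept peak there is the shortest, of which every autosomal peak was kept.

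Lin54 encodes the DNA-binding subunit of the DREAM complex, which holds cell cycle genes in check. Its region at chr5:100466462-100467387 ranked 65.6, 78.2, 74.9, 70.4 and 71.0 after LPS in AF9-experienced mice, against 9.7, 8.98, 0 and 0 after PBS. In naive mice it ranked 73.1, 74.3 and 42.4 after LPS, against 34.4, 0, 0 and 0 after PBS. The groups did not overlap, although naive LPS replicate 3 and naive PBS replicate 1, both short lists, came closest. The differences were 67.3 (SE 8.2; limma adjusted p = 7.75e-05) and 54.7 (SE 9.34; adjusted p = 0.00209).

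Cdk6, the kinase that sets how fast stem cells leave rest, held 5 intragenic regions, and 2 of them passed in both backgrounds. The calls of the one that starts at chr5:3494262 were lost in 11 (AF9-experienced; limma adjusted p up to 0.14) and 8 (naive; up to 0.21) of 16 fits with 1 library left out. The other region, at chr5:3497252-3498170, 157 kb from the 5′ end, ranked 28.2, 49.9, 46.4, 41.8 and 60.1 after LPS in AF9-experienced mice and 40.2, 41.5 and 28.9 after LPS in naive mice, against 0 in all 8 PBS lists. It rose in every LPS library, by 45.3 (SE 6.97; limma adjusted p = 0.000442) in AF9-experienced and by 36.9 (SE 7.93; adjusted p = 0.0107) in naive mice. The naive value lost its call without naive LPS replicate 2 (adjusted p = 0.0611). A weaker peak stood there in 4 of 4 full PBS lists of AF9-experienced and 3 of 4 of naive mice. The region met the list minimum through LPS lists alone, so these differences are not independent of the rule.

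A region of Trp53, the gene of the p53 tumour suppressor, at chr11:69585749-69586182 ranked 58.8, 53.7, 65.5, 64.9 and 57.0 after LPS in AF9-experienced mice, against 0, 36.4, 23.7 and 37.7 after PBS. In naive mice it ranked 71.9, 67.1 and 51.5 after LPS, against 0, 0, 26.3 and 32.0 after PBS. The LPS libraries were all higher, and the PBS libraries varied widely. The differences were 35.5 (SE 8.55; limma adjusted p = 0.0168) and 48.9 (SE 9.74; adjusted p = 0.00659). Regions of the survival genes Bcl2, which blocks apoptosis, and Bid, which promotes it, rose as well, Bcl2 to 45.9 ± 13.7 after LPS against 0.618 ± 1.24 after PBS in AF9-experienced mice (adjusted p = 0.000937) and to 33.8 ± 12.3 against 0 in naive mice (adjusted p = 0.031). Bid stood at 33.5 ± 11.5 after LPS against 0 after PBS in AF9-experienced mice (adjusted p = 0.00569) and at 41.1 ± 2.79 against 3.1 ± 6.2 in naive mice (adjusted p = 0.00841).

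Acod1 makes itaconate, a metabolite of activated macrophages, and is a well known LPS target. Its region at chr14:103048449-103049239, which holds the start of Gm41235 whose window is printed above, ranked 36.8, 38.1, 31.5, 39.5 and 46.3 after LPS in AF9-experienced mice and 51.7, 47.8 and 36.7 after LPS in naive mice, against 0 in all 8 PBS lists. The differences were 38.4 (SE 6.32; limma adjusted p = 0.000828) and 45.4 (SE 7.2; adjusted p = 0.00153). The LPS and PBS libraries stood fully apart, and 3 of 4 full PBS lists in each background held a weaker peak. Only LPS lists brought the region to the list minimum, so the differences are not independent of the rule. With ranking by fold enrichment neither call held (differences 13.8 and 28.3; adjusted p = 0.202 and 0.161).

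Il1b encodes the cytokine interleukin-1 beta. Its intragenic region at chr2:129367991-129368507 ranked 45.2, 42.5, 47.1, 47.2 and 15.9 after LPS in AF9-experienced mice, against 0 in all 4 PBS lists, and 17.5, 24.2 and 0.822 after LPS in naive mice, against 0 in all 4 PBS lists. It rose in AF9-experienced mice by 39.6 (SE 7.15; limma adjusted p = 0.00206), and in naive mice the difference of 14.2 did not pass (SE 8.14; adjusted p = 0.421). Among LPS libraries the AF9-experienced ones were mostly higher, but the difference between the backgrounds, 25.4 (SE 7.78), did not pass (adjusted p = 0.684). This region too met the list minimum through LPS lists alone, so its LPS differences are not independent of the rule.

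A region with 3 starts of Nfkb2, the gene of the p100 and p52 subunits of NF-kB, lay at chr19:46304164-46306113 and was strong in every library. It ranked 87.8, 89.7, 96.0, 94.1 and 96.4 after LPS in AF9-experienced mice, against 80.5, 78.6, 77.0 and 81.7 after PBS, and 91.1, 91.5 and 84.7 after LPS in naive mice, against 93.3, 85.2, 82.1 and 80.6 after PBS. It rose by 13.3 (SE 2.65; limma adjusted p = 0.00435) in AF9-experienced mice, where the groups did not overlap, and in naive mice, where they did, the difference of 3.81 did not pass (SE 3.01; adjusted p = 0.594). Il1b and Nfkb2 were the 2 of 23 intragenic regions of the NF-kB and Toll-like receptor list that passed in AF9-experienced mice, and none of the 23 passed in naive mice. The median difference of the 23 was 0.693 and 3.65, against 0.488 and 0.0 over all intragenic regions. Over all intragenic regions 5.49% ranked higher in AF9-experienced and 3.07% in naive mice, and with counts this small nothing is read from this list or the next. Of the 24 regions of the JAK-STAT and interferon list 3 rose in AF9-experienced and none in naive mice. They were in Jak2, a cytokine receptor kinase gene (45.1 ± 8.65 after LPS against 4.52 ± 7.12 after PBS; limma adjusted p = 0.00398), in Nmi, an interferon-induced partner of STAT proteins (adjusted p = 0.0076), and in Irf2 (adjusted p = 0.0485).

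Rac1, a GTPase that stem cells need to home to and stay in marrow, held a region at chr5:143518033-143518603 that ranked 33.7, 37.5, 43.1, 50.4 and 48.8 after LPS in AF9-experienced mice and 40.3, 49.5 and 31.2 after LPS in naive mice, against 0 in all 8 PBS lists. Every LPS library was above every PBS library, but the region met the list minimum through LPS lists alone and its differences are not independent of the rule. The differences were 42.7 (SE 6.55; limma adjusted p = 0.000428) and 40.3 (SE 7.46; adjusted p = 0.00387). Of the 35 regions of the adhesion and homing list 3 rose in each background and none fell, namely those of Rac1, of the integrin gene Itgb2 (36.7 ± 8.07 after LPS against 5.56 ± 6.42 after PBS in AF9-experienced mice, and 36.7 ± 3.73 against 0.301 ± 0.602 in naive mice) and of Cd47, the gene of a signal that spares cells from being engulfed (25.9 ± 11.8 against 0, and 33.4 ± 7.56 against 0). Their adjusted p was 0.00663 and 0.023 in AF9-experienced and 0.00813 and 0.0145 in naive mice for Itgb2 and Cd47 in that order. Over all intragenic regions 5.49% ranked higher in AF9-experienced and 3.07% in naive mice, and with counts this small nothing is read from the adhesion and homing list. A pair of regions of Tiam1, which activates Rac, rose in AF9-experienced mice, by 37.2 and by 56.3 (adjusted p = 0.0142 and 0.000135), and the second also in naive mice, by 49.1 (adjusted p = 0.00273).

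A region of Ltbp1, which stores latent TGF-beta in the matrix, stood at 58.5 ± 6.16 after LPS in AF9-experienced mice against 0 in all PBS lists (limma adjusted p = 3.43e-05), and at 48.0 ± 5.17 against 0 in naive mice (adjusted p = 0.00118). Regions of Clic4, Pkd1l2, Dapp1 and Glis1 rose by 40.9 to 62.9 in both backgrounds (adjusted p = 6.88e-05 to 0.00371). Slc16a10, an aromatic amino acid transporter gene, had 3 regions that rose in AF9-experienced mice, by 35.9 to 50, and 2 of these rose in naive mice, by 39.2 and 50.9. Rptor, the gene of the raptor subunit of mTORC1, had 2 regions that rose by 31.0 and 47.3 in AF9-experienced mice and by 33.7 and 46.6 in naive mice. Inpp5d, the gene of the phosphatase SHIP1 that limits cytokine signalling, had 2 regions that rose in AF9-experienced mice, by 31.4 and 58.4 (adjusted p = 0.0172 and 0.00054), with differences of 18.6 and 26.9 in naive mice that did not pass. Regions of Traf2, an adaptor of TNF receptors, Pfkfb3, which drives glycolysis, Adam17, which sheds TNF, and Dpp4, which clips CXCL12, were named after their values were seen; each rose in both backgrounds, by 33.3 to 52.8.

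**Figure D4:**
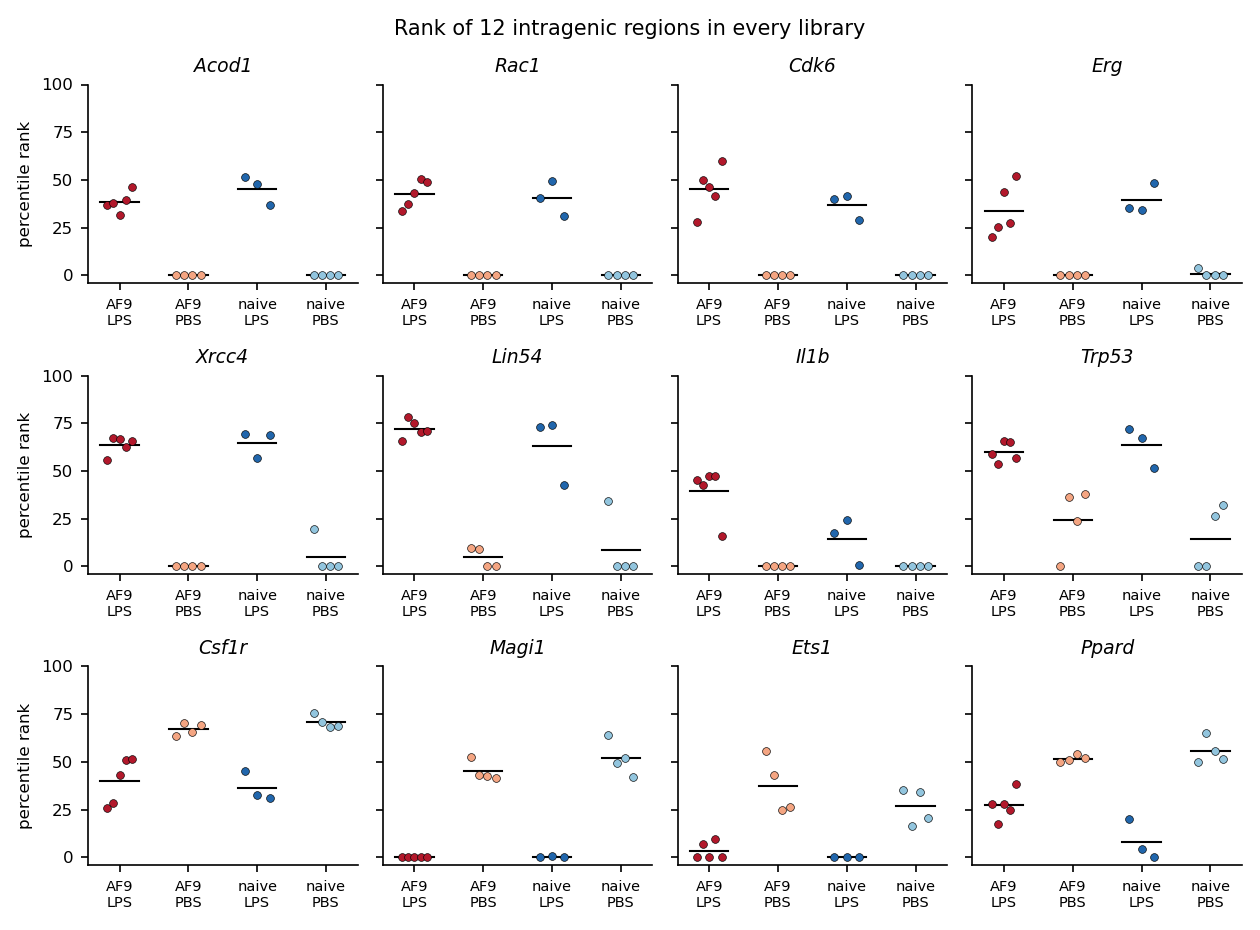
Percentile rank of 12 intragenic regions, named by host gene, in each of the 16 libraries (points), by group, with the group mean as a line; 0 means that no peak was kept. In the first 8 panels the LPS libraries stand above the PBS libraries of the same background, with a naive LPS value of Il1b near 0, and in the last 4 panels the PBS libraries stand above.

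Among the regions that ranked lower after LPS was one inside Csf1r, the gene of the macrophage colony-stimulating factor receptor, at chr18:61107650-61109111. It ranked 25.7, 28.5, 43.2, 51.1 and 51.7 after LPS in AF9-experienced mice, against 63.7, 70.4, 65.5 and 69.2 after PBS, and 45, 32.5 and 31.1 after LPS in naive mice, against 75.9, 70.8, 68.4 and 68.8 after PBS. All LPS libraries were below all PBS libraries, and all kept a peak. The region fell by 27.2 (SE 5.91; limma adjusted p = 0.00809) in AF9-experienced and by 34.8 (SE 6.73; adjusted p = 0.00543) in naive mice. With ranking by fold enrichment the differences were −10.2 and −23.7 and did not pass (adjusted p = 0.63 and 0.401).

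Magi1, a scaffold gene of cell junctions, held a region (chr6:94186619-94187504) that fell in both backgrounds. It ranked 0 in all 5 LPS lists of AF9-experienced mice, against 52.8, 42.9, 42.8 and 41.7 after PBS, and 0, 0.812 and 0 after LPS in naive mice, against 63.9, 49.6, 52.3 and 42.0 after PBS. All 8 full LPS lists held a weaker peak there. The differences were −45 (SE 6.58; limma adjusted p = 0.000276) and −51.7 (SE 7.5; adjusted p = 0.000947). With halved lists they shrank to −1.38 and −8.09 and did not pass (adjusted p = 0.927 and 0.601). Regions of Cyth4, which activates ARF GTPases in blood cells, and Exoc6, an exocyst subunit gene, fell to a like degree, Cyth4 to 0.854 ± 1.91 after LPS against 40.4 ± 1.13 after PBS in AF9-experienced mice (adjusted p = 0.00054) and to 0 against 45.6 ± 5.89 in naive mice (adjusted p = 0.0012).

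Nfia, a transcription factor gene of the erythroid and granulocyte choice, had 3 regions that fell in AF9-experienced mice, by 19.8 to 33.9. The one at chr4:97647433-97648520 ranked 0, 0, 0, 30 and 28.2 after LPS in AF9-experienced mice, against 56.5, 41.6, 48.8 and 35.4 after PBS, and 0 in all 3 LPS lists of naive mice, against 61.4, 47.1, 34.3 and 29.7 after PBS. The LPS libraries were lower within each background, with AF9-experienced LPS replicates 4 and 5 close to the lowest PBS values. The differences were −33.9 (SE 8.66; limma adjusted p = 0.0233) and −43.1 (SE 9.86; adjusted p = 0.0162). The AF9-experienced call was lost without any 1 of AF9-experienced PBS replicates 1 to 3 or LPS replicates 1 to 3 (adjusted p = 0.05 to 0.0773), and the naive call without naive LPS replicate 1 or 2 (adjusted p = 0.0535 and 0.0628).

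Ets1, a transcription factor gene of the lymphoid lineages, held a region at chr9:32705667-32706508 that ranked 0, 6.76, 0, 9.59 and 0 after LPS in AF9-experienced mice, against 55.7, 43.1, 24.9 and 26.5 after PBS, and 0 in all 3 LPS lists of naive mice, against 35.2, 16.7, 34.1 and 20.7 after PBS. The LPS libraries lay below the PBS libraries throughout. The summed rank of regions in mature lymphocyte genes, given below, was likewise lower after LPS, and its part in this result was not tested. The Ets1 region fell by 34.2 (SE 7.27; limma adjusted p = 0.00684) in AF9-experienced mice, and the difference of −26.7 in naive mice did not pass (SE 8.27; adjusted p = 0.0837). Ppard, a nuclear receptor gene of fatty acid oxidation, held a region at chr17:28247233-28248189 that ranked 27.8, 17.7, 27.8, 24.9 and 38.7 after LPS in AF9-experienced mice, against 49.8, 50.9, 54.0 and 51.9 after PBS, and 20.3, 4.29 and 0 after LPS in naive mice, against 50.1, 65.2, 55.5 and 51.4 after PBS. Again the groups did not overlap. The differences were −24.3 (SE 6.71; adjusted p = 0.0376) and −47.4 (SE 7.64; adjusted p = 0.00159). The first of these is a marginal call, which was lost when any of 9 libraries was left out, naive PBS replicates 3 and 4, AF9-experienced PBS replicates 2 to 4 and LPS replicates 1 to 4 (adjusted p = 0.0512 to 0.118).

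Internal starts moved in both directions. The region of S100a3 at chr3:90586555-90587470, whose window with 2 CG dinucleotides is printed above, ranked 39.1, 43.5, 46.8, 44.0 and 51.3 after LPS in AF9-experienced mice, against 11, 0, 12.7 and 0 after PBS, and 45.5, 35.8 and 44.7 after LPS in naive mice, against 0, 0, 24.7 and 17.5 after PBS. All LPS libraries were higher. It rose by 39.0 (SE 7.23; limma adjusted p = 0.0025) and by 31.5 (SE 8.23; adjusted p = 0.0365), and the naive call was lost without naive PBS replicate 1 or 2, any naive LPS replicate, or AF9-experienced PBS replicate 2, 3 or 4 (adjusted p = 0.0504 to 0.123). The region of Pstpip1, the gene of an adaptor that binds the actin cytoskeleton and is mutated in an autoinflammatory disease, at chr9:56089537-56090738 ranked 47.7, 61.0, 73.1, 51.7 and 71.7 after LPS in AF9-experienced mice, against 89.5, 79.0, 74.8 and 77.6 after PBS, and 56.8, 51.9 and 55.3 after LPS in naive mice, against 85.7, 83.8, 78.5 and 73.2 after PBS. The LPS libraries were lower by −log10 p, with differences of −19.2 (SE 4.96; adjusted p = 0.0255) and −25.6 (SE 5.65; adjusted p = 0.0131), but with ranking by fold enrichment the differences turned to 16 and 5.01 (adjusted p = 0.516 and 0.907). The call was also lost without AF9-experienced PBS replicate 1, 2 or 4 or LPS replicate 1 or 4 in AF9-experienced mice (adjusted p = 0.0566 to 0.073) and without naive LPS replicate 2 in naive mice (adjusted p = 0.0638).

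With ranking by fold enrichment neither call held for Erg (described below), Trp53, Nfia, Ppard and S100a3 (adjusted p = 0.0581 to 0.218). The naive call did not hold for Rac1, Lin54, Magi1 and the stronger Fyb region described below (0.0725 to 0.241), nor the AF9-experienced call for Ets1 and Nfkb2 (0.372 and 0.141). Both calls held for Xrcc4 (adjusted p = 0.0398 in AF9-experienced and 0.0247 in naive mice), but with halved lists its naive call was lost (0.0849). With a peak covering 50% of the region both calls were lost for Csf1r (limma adjusted p = 0.779 in AF9-experienced and 0.633 in naive mice) and Lin54 (0.0517 and 0.0829), among others. With only the groups compared in the fit, the naive call was lost for Rac1, the stronger Cdk6 region, Erg, Lin54 and Trp53 (limma adjusted p = 0.0552 to 0.0659). It was also lost for Nfia, S100a3 and the stronger Fyb region (0.0509 to 0.166), as was the AF9-experienced call for Pstpip1 (0.0609). The naive calls of Xrcc4, Acod1, Csf1r, Magi1, Ppard and Pstpip1 held. Of 296 calls of named regions 179 held in that fit. Fewer held under other choices, counted over the calls whose region was found again. With ranking by fold enrichment 42 of 262 held, 213 no longer passed and 7 changed sign. With a peak covering 50% of the region 101 of 293 held, and with halved lists 26 of 137.

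The other regions whose start windows are printed above passed in both backgrounds or in neither. That of Smim14 stood at 41.9 ± 15.3 after LPS against 0 after PBS in AF9-experienced mice (limma adjusted p = 0.0021) and at 44.0 ± 8.64 against 0 in naive mice (adjusted p = 0.00605). That of Atp2b2 stood at 16.6 ± 9.92 after LPS against 52.1 ± 6.1 after PBS in AF9-experienced mice (adjusted p = 0.00765) and at 4.0 ± 6.92 against 43.3 ± 12.7 in naive mice (adjusted p = 0.0133). That of Ppfia4 stood at 6.22 ± 12.1 after LPS against 35.0 ± 3.9 after PBS in AF9-experienced mice (adjusted p = 0.02) and at 5.69 ± 4.96 against 40.9 ± 4.4 in naive mice (adjusted p = 0.0172). The Stag1 and Runx1 starts did not pass.

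The list of HSC and progenitor transcription factors held 101 regions in 28 host genes, of which 4 rose and 7 fell in AF9-experienced mice and 4 rose and 1 fell in naive mice. Over all intragenic regions 5.49% ranked higher and 2.46% lower in AF9-experienced mice, and 3.07% and 1.75% in naive mice, and with counts this small nothing is read from the list. Its median difference was 0.91 and 0.536. Runx1 held 6 regions and none passed. The one 24.6 kb from its 5′ end, at chr16:92800712-92802215, was strong in every library, at 79.3, 67.8, 79.0, 74.0 and 77.5 after LPS in AF9-experienced mice, against 80.7, 80.1, 81.3 and 77.0 after PBS, and 83.4, 70.9 and 82.2 after LPS in naive mice, against 73.0, 79.5, 81.4 and 79.3 after PBS. Its groups overlapped, with differences of −4.28 and 0.536 (limma adjusted p = 0.508 and 0.98). The region of the proximal promoter at chr16:92696712-92699038, whose window is printed above, ranked 67.3, 64.2, 41.6, 38.1 and 41.4 after LPS in AF9-experienced mice, against 47.0, 32.1, 45.4 and 40.9 after PBS, and 56.0, 48.7 and 49.6 after LPS in naive mice, against 40.2, 46.0, 45.9 and 54.3 after PBS. It too overlapped, and the differences of 9.16 and 4.83 did not pass (adjusted p = 0.495 and 0.838).

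Erg, a transcription factor gene that keeps stem cells undifferentiated, held 5 regions, of which 1 rose in both backgrounds and the others did not pass. That region, at chr16:95415825-95416661 and 170 kb from the 5′ end, ranked 20, 25.2, 43.7, 27.7 and 52.1 after LPS in AF9-experienced mice, against 0 in all 4 PBS lists, and 35.4, 34.0 and 48.5 after LPS in naive mice, against 3.66, 0, 0 and 0 after PBS. No LPS library reached down to a PBS library. The differences were 33.7 (SE 7.16; limma adjusted p = 0.00684) and 38.4 (SE 8.16; adjusted p = 0.00994). Meis1, a partner of HOX proteins in stem cells, held 3 regions, of which 2 were in all lists at mean ranks of 60.6 and 58.0. Fli1 and Flt3 held 3 and 4 regions, Ikzf1 and Bcl11a 2 each, and none of these passed. Etv6 and Mecom held 6 and 2 regions, of which 1 each passed in AF9-experienced mice, in Etv6 upward (23.4 ± 9.08 after LPS against 0 after PBS; adjusted p = 0.0407) and in Mecom downward (1.94 ± 4.33 against 29.3 ± 20.1; adjusted p = 0.039). Kit, the receptor gene by which the cells were sorted, hosted no region that met the rule. Peaks do not measure expression, so the labelled cell type was checked here only by regions in its marker genes.

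Some host genes had regions that moved in opposite directions. In Zfpm1, the gene of the GATA factor partner FOG1, a region at chr8:122321383-122322341 stood at 40.6 ± 22.1 after LPS against 0 after PBS in AF9-experienced mice (limma adjusted p = 0.00973) and at 39.7 ± 13.0 against 0 in naive mice (adjusted p = 0.0351). Another of its 5 regions, at chr8:122330844-122331714, stood at 9.35 ± 14.2 after LPS against 48.7 ± 5.08 after PBS in AF9-experienced mice (adjusted p = 0.0132) and at 0 against 32.3 ± 21.9 in naive mice, which did not pass (adjusted p = 0.0993). In Nav1 a region rose and another fell in both backgrounds, by 39.7 and −33.3 in AF9-experienced and by 43.6 and −39.4 in naive mice. In AF9-experienced mice 42 host genes had 2 or more regions that passed, with all higher in 28, all lower in 3 and both directions in 11. In naive mice 16 had, with all higher in 10, all lower in 1, which was Fhad1, and both directions in 5. Gse1 and Frmd4a had 3 regions each that rose in AF9-experienced mice, by 24.2 to 44.4 and by 27.8 to 42.2.

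**Figure D5:**
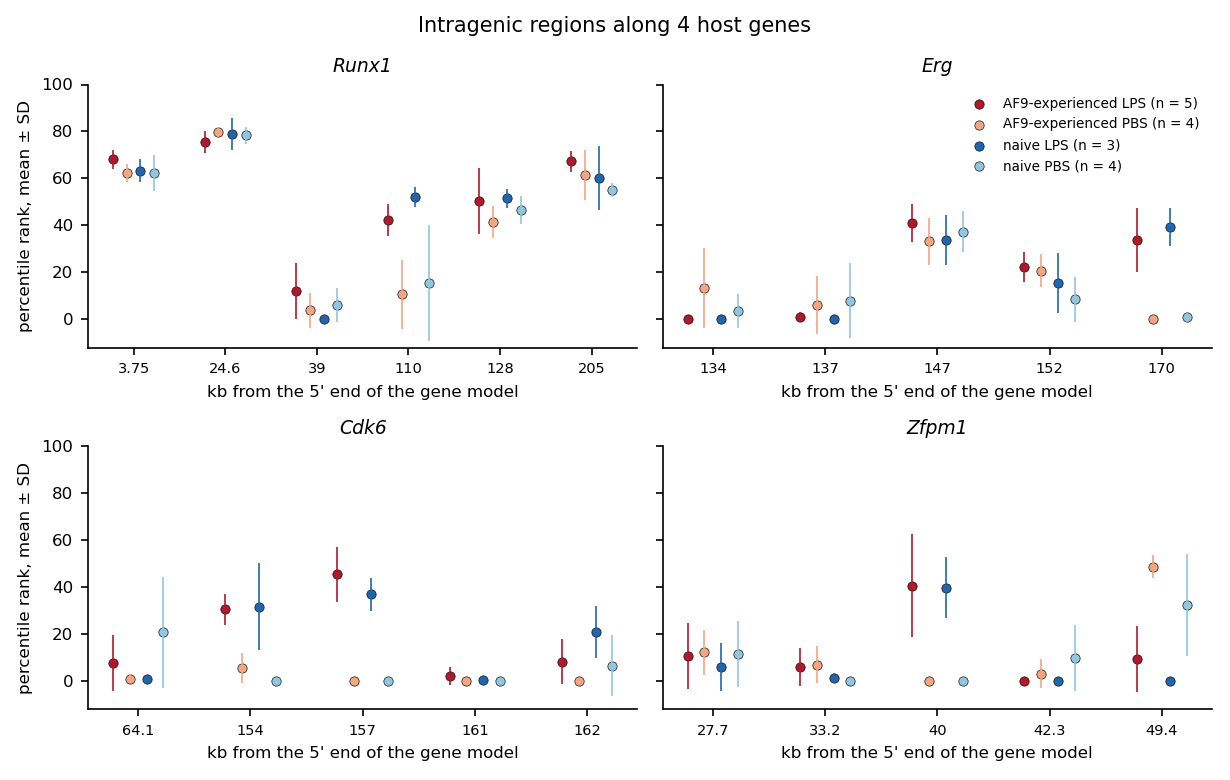
Mean percentile rank ± SD of every intragenic region of Runx1, Erg, Cdk6 and Zfpm1 in the 4 groups (AF9-experienced LPS n = 5, AF9-experienced PBS n = 4, naive LPS n = 3, naive PBS n = 4), in order of distance in kb from the 5′ end of the gene model; the spacing is not to scale. No Runx1 region passed, 1 region of Erg and 2 of Cdk6 were higher after LPS in both backgrounds, and Zfpm1 held 1 higher and 1 lower region.

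Between AF9-experienced and naive mice no intragenic region passed after PBS in either direction, against 0.0% of all tested regions (limma, all adjusted p = 1.0), where 156 were higher and 96 lower at an unadjusted p under 0.05; with limma's arrayWeights 8 were higher and 5 lower. After LPS none ranked higher in AF9-experienced mice, against 0.0% of all tested regions, and 3 ranked lower, against 0.0127%. At an unadjusted p under 0.05 there were 326 higher and 178 lower. The difference between the LPS responses of both backgrounds passed in no intragenic region, against 0.0% of all tested regions (limma, smallest adjusted p = 0.88, with 249 regions at an unadjusted p under 0.05), so the regions that passed in 1 background alone are not shown to respond differently.

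The 3 regions lay in Akap13, a scaffold gene for protein kinase A and RhoA, in Rnf180, a ubiquitin ligase gene, and in Fyb, an adaptor gene of T cells and platelets. The Akap13 region at chr7:75699641-75700258 ranked 0 in all 5 AF9-experienced LPS lists, against 19.1, 43.9 and 25 in naive LPS lists, and 0 in all 8 PBS lists (difference −29.3, SE 4.78; limma adjusted p = 0.0269). The Rnf180 region at chr13:105139872-105140333 ranked 0, 0, 0, 0 and 4.88 in AF9-experienced LPS lists, against 24.7, 30 and 35.4 in naive LPS lists, and 0 in all PBS lists (difference −29.1, SE 4.18; adjusted p = 0.01). The Fyb region at chr15:6574437-6574978 ranked 0, 4.18, 0, 0 and 2.91 in AF9-experienced LPS lists, against 30.8, 27.1 and 27 in naive LPS lists (difference −26.9, SE 3.98; adjusted p = 0.01).

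The Akap13 region was in 3 lists, all of naive mice after LPS, so it met the list minimum through the group where it is high. The Rnf180 region was in 4 lists and the Fyb region in 5, of which 3 each were of naive mice after LPS. Neither would have met the minimum of 3 lists without that group. All 8 full LPS lists held a peak at each of the 3 regions, and none of the 3 calls held when only the groups compared were in the fit (adjusted p = 0.942 for each). Groups at 0 in every list add no spread to the estimate that all groups share. The LPS rises of Acod1, Il1b, Rac1 and the stronger Cdk6 region have this limit too, as their PBS groups were at 0. Leaving out AF9-experienced LPS replicate 3 or 4 also ended the calls of Akap13, Rnf180 and this Fyb region (adjusted p = 0.0508 to 0.106), and that of Akap13 ended without most other libraries as well. Another Fyb region, at chr15:6568778-6569613, ranked 44.9, 39.1, 43.1, 43.8 and 66.5 after LPS in AF9-experienced mice, against 0, 1.67, 0 and 0 after PBS, and 37.0, 35.7 and 45.3 after LPS in naive mice, against 0 in all 4 PBS lists. It rose in both backgrounds, by 47.1 (SE 6.84; adjusted p = 0.000267) and 39.3 (SE 7.79; adjusted p = 0.00624).

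The share of intragenic peaks in a list did not separate the groups. In AF9-experienced mice LPS libraries had 28.4% ± 0.364 (SD, n = 5) and PBS libraries 27.3% ± 2.13 (n = 4), with an exact permutation p of 0.476 (adjusted over 4 comparisons 0.648). In naive mice LPS libraries had 27.2% ± 2.05 (n = 3) and PBS libraries 26.2% ± 3.21 (n = 4), with an exact permutation p of 0.743 in a design that cannot go below 0.0571. Between AF9-experienced and naive mice the exact permutation p was 0.486 after PBS and 0.464 after LPS. For the median rank of intragenic peaks it ran from 0.429 to 1.0 over the same 4 comparisons, two-sided. The LPS minus PBS difference in that median in AF9-experienced mice depended on how peaks were ranked: it was 0.452 by −log10 p (exact permutation p = 0.762) and −4.81 by fold enrichment (exact permutation p = 0.0159, the smallest this design allows).

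Other lists gave few calls, and their counts are read against the shares of all intragenic regions given above. Of the 38 regions in cell cycle and survival genes 7 rose and none fell in AF9-experienced mice, and 5 rose and 1 fell in naive mice, with median differences of 4.52 and −0.00328. Of the 62 in chromatin and DNA methylation regulators 1 rose and 2 fell in AF9-experienced mice, among them a fall in Dot1l, the H3K79 methyltransferase gene (0.802 ± 1.79 after LPS against 43.9 ± 12.9 after PBS; limma adjusted p = 0.00678), and 2 rose and 2 fell in naive mice. Cytokine and growth factor receptors held 42 regions, with 2 falls (Csf1r and Notch2) in AF9-experienced mice, and 1 rise (Igf1r) and 1 fall (Csf1r) in naive mice. In the AP-1 and MAP kinase list of 28, the region of Mapkapk3, a kinase below p38, alone rose, to 68.0 ± 8.18 after LPS against 27.7 ± 22.9 after PBS in AF9-experienced mice (adjusted p = 0.00374) and to 69.3 ± 6.45 against 32.5 ± 1.68 in naive mice (adjusted p = 0.0241). Myeloid genes held 17 regions, 2 of which rose in AF9-experienced and 1 in naive mice, and lymphoid genes held 12, of which 1, in Lef1, fell in AF9-experienced mice. Megakaryocyte and erythroid genes held 25 (2 rose and 2 fell in AF9-experienced, 1 rose in naive mice), metabolism genes 33 (2 rose and 1 fell; 1 rose and 1 fell), and housekeeping genes 2, which did not pass.

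Regions in marker genes of cells that the sort should remove were few but not all still. Mature lymphocyte genes held 4 regions, whose summed rank was 25.2 to 79.8 after LPS against 135 to 150 after PBS in AF9-experienced mice, and 45.1 to 73.6 against 129 to 157 in naive mice. Monocyte and macrophage genes held 6 regions, with a summed rank of 78.1 to 152 after LPS against 138 to 157 after PBS in AF9-experienced mice and 99.5 to 104 against 118 to 187 in naive mice, where the fall was that of Csf1r. Mast cell and basophil genes held 7 regions, with 255 to 327 against 222 to 246 and 246 to 317 against 223 to 293, (AF9-experienced and naive mice in that order, LPS first), where 1, in Cd200r3, rose in both backgrounds (64.4 ± 10.1 after LPS against 16.5 ± 7.02 after PBS in AF9-experienced mice; adjusted p = 0.00435). None of the 4 neutrophil or 7 endothelial and stromal regions passed. The part of such cells in the other LPS differences was not tested.

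Calls near the threshold rested on single libraries. In AF9-experienced mice the falls of Lef1 and of the Nfia region at chr4:97657557-97658154 and the rise of Irf2 were each lost in 13 of 16 fits with 1 library left out (limma adjusted p up to 0.166, 0.14 and 0.134). The Gse1 region with the smallest difference was lost in 12, Etv6 in 10, Mecom and the weakest Frmd4a region in 9 each, Notch2 in 7 and Cd47 in 5. Ppfia4 and the weakest Slc16a10 region were lost in 4 each, the Inpp5d region with the smaller difference without AF9-experienced PBS replicate 3 or 4, and the weaker Tiam1 region without AF9-experienced PBS replicate 3. In naive mice the rise of the Zfpm1 region was lost in 7 fits (adjusted p up to 0.172), those of Bcl2, Cd200r3 and Mapkapk3 in 5 each, Igf1r in 4 and the falls of Ppfia4 and 1 Fhad1 region in 3 each. Naive LPS replicate 2 was among the libraries on which each of these naive calls rested. Without it the naive calls of Atp2b2, Cd47, the higher Nav1 region and 1 Frmd4a region were lost too.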

How the data were processed

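ATAC-seq peak lists of 16 biological replicates were used, 1 list for each, with the groups taken from the sample titles. FastQC, Trim Galore, BWA, Picard and MACS3 are named on GRCm38 per the submitters' processing notes, without versions. The labels name the Omni-ATAC protocol and a Chromium chemistry, and which applies to a list is not given in the sources used here, nor are read depth, filters or how technical libraries were joined. The authors deposited a fold enrichment over background for each peak, a ratio, and −log10 p and −log10 q values from their peak caller. The lists are not scaled to each other, so ranks within lists of equal length were compared.

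Each list was reduced to the 19100 strongest autosomal peaks, the number the shortest list holds. Percentile ranks of the 23554 merged regions found in 3 or more lists were fitted in limma 3.58.1 (R 4.3.3) with a mean per group over all 16 libraries and empirical Bayes with trend and robust options. P-values were adjusted by Benjamini-Hochberg over all of these regions, and an adjusted p under 0.05 passed. The code was tested on simulated data. Values per library were compared by two-sided permutation tests in Python 3.11.15 with scipy 1.17.1, exact for the comparisons of groups. RefSeq gene models gave hosts and gene ends, and RefSeq start windows on GRCm38.p6 gave sequences. The start table used here does not cover every chromosome, and exons and introns were not separated. All ranks measure order within a list, so a region's rank depends on the other peaks of that list.

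The members, gene lists and alternatives were chosen with earlier results of these data known. Regions named were the 8 with the smallest adjusted p in each comparison and direction, those that passed in the gene lists (up to 4 for each list and comparison), all regions of 12 chosen blood genes, the 10 hosts with the most regions, hosts with the most regions that passed, and the 8 regions of highest mean rank. Regions with a start that passed (S100a3, Pstpip1, Smim14, Atp2b2, Ppfia4) and regions whose LPS and PBS ranks do not overlap (Traf2, Pfkfb3, Adam17, Dpp4) were chosen after their values were seen. Alternatives covered the ranking, list length, overlap, libraries, filters, gene ends, covariates, weights and a replicate block, and 3 of them were added after seeing the data. A result on 1 withheld item is not reported here.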

Additional observations from a re-analysis of the deposited data

Results flagged for a closer look

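Of 81 groups of 4 or 5 libraries examined, 14 had a library far from the others by Dixon's criterion, which chance alone meets in about 1 in 20 groups. Several were the short lists. AF9-experienced PBS replicate 1 had the lowest share of intragenic peaks in its group (24.1%), the highest median rank of intragenic peaks (42.0) and the lowest percent of intragenic regions with a kept peak (59.4%). Naive PBS replicate 1 had the highest median rank (46.4), also over regions without a start (42.8), and the lowest percent with a kept peak (51.0%). It was also the highest of the naive PBS libraries at the regions of Erg (3.66), Xrcc4 (19.7) and Lin54 (34.4), and AF9-experienced PBS replicate 1 was the highest of its group at Magi1 (52.8).

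AF9-experienced LPS replicate 5 stood apart from its group in 3 regions. It was the lowest at Il1b (15.9) and the highest at Rnf180 (4.88) and at the Fyb region that rose in both backgrounds (66.5). At the same Fyb region AF9-experienced PBS replicate 2 was the only library of its group with a kept peak (1.67).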

How the results depend on the processing

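Counts are intragenic regions that passed, and the cause of each change was not tested. Ranking by fold enrichment gave 117 higher and 59 lower after LPS in AF9-experienced mice, 1 and 1 in naive mice, and 0 lower in AF9-experienced against naive mice after LPS. It moved the LPS difference in intragenic share to −0.143 (AF9-experienced) and −0.115 (naive) percentage points, the median rank difference in AF9-experienced mice to −4.81 (exact permutation p = 0.0159) and the intragenic minus distal difference to 0.106. It reversed Hsf2 (0.0948), Sema4d (−1.35), Abca4 (1.51), Mettl9 (5.49), Pxylp1 (10.7) and Pstpip1 (16) in AF9-experienced mice and Pstpip1 (5.01) in naive mice. Halving the lists gave 56 and 22, 6 and 12, and 0, with a median rank difference of −0.127. A peak covering 50% of the region gave 151 and 13, 74 and 3, and reversed Slc16a10 (−4.4), Tsc2 (−2.97) and Fam107b (10.2) in naive mice and Mettl9 (13.1) in AF9-experienced mice; the planned form of that overlap changes nothing by construction. Without the 3 shortest lists there were 575 and 452, and 384 and 267, with shares of −0.119 (LPS, AF9-experienced) and −0.0749 (AF9-experienced against naive after LPS) and a naive median rank difference of 0.523. Longer lists of those 13 libraries gave 1756 and 1855, and 1363 and 991. Presence in the full lists gave 0 in each comparison, and reversed Mecom, Notch2 and Nfia in AF9-experienced mice (0.25 each). A minimum of 5 lists left 0 lower in AF9-experienced against naive mice after LPS. Only the groups compared gave 40 and 21 in naive mice and 0 for that comparison. With arrayWeights there were 927 and 786, 724 and 627, 8 and 5 after PBS, and 2 and 5 after LPS. Correlations of same-numbered libraries ran from −0.215 to 0.231, the highest being that of naive and AF9-experienced PBS replicate 1, both short lists. Whether a shared replicate number marks a shared batch was not tested. A replicate block gave 330 and 126, 171 and 80, and 0 lower in AF9-experienced against naive mice after LPS. Leaving out 1 library gave 231 to 485 and 76 to 273 in AF9-experienced mice, 118 to 269 and 52 to 265 in naive mice, 0 to 0 after PBS, and 0 to 2 higher and 0 to 7 lower after LPS. Share differences then ranged from 0.0307 to 1.59, −0.557 to 2.14, −0.473 to 2.22 and −0.0414 to 1.82 (LPS in AF9-experienced, LPS in naive, PBS, LPS backgrounds). Median rank differences ranged from −0.49 to 1.92, −2.81 to 0.839, −2.9 to 1.23 and 0.459 to 1.37, −33.4 to −32.7 against gene ends and 3.07 to 3.21 against distal regions. Of 4727 named calls with 1 library left out 3912 still passed and none reversed. Read depth was not given in the files, so its limits cannot be stated.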
